A study of Mus musculus with 4 samples.

Results

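Cap1, Arf5, Sae1, Prkd1 and Bcl7c are 5 of 10 genes, among 9285 measured in mouse liver, whose log2 ratio to wild type was at least 1 (2-fold) in each of 3 lines carrying a mutant selenocysteine tRNA transgene and below 0.5 in livers lacking the tRNA gene. They were read by 7 of 15478 probes, 3 of them for Sae1 and 1 for each of the others. The 5 were chosen by their measured log2 ratios in all 4 comparisons, the same values as given below, so every level here is a description, and no test is attached to it.

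The selenocysteine tRNA, encoded by Trsp, places selenocysteine in all selenoproteins. Its anticodon wobble nucleotide, at position 34, can carry a methyl group that needs a complete tRNA structure and modified bases. The adenosine beside the anticodon, at position 37, carries an isopentenyl group. Changes at either position are known to give a tRNA without the wobble methylation, which favours housekeeping over stress-related selenoproteins. None of the 5 genes encodes a selenoprotein.

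Ratios came from 2-colour arrays of livers of male B6/FVB mice 7 to 8 weeks old on a diet with sufficient selenium. The A34 line had 2 copies of a Trsp transgene in which T34 was changed to A34. In the G37L and G37H lines A37 was changed to G37, with 2 transgene copies in G37L and 16 in G37H. DTrsp mice were knockouts that lacked Trsp in the liver. The labels do not name the driver of the knockout, and do not say whether the transgenic livers kept their own Trsp. The reference in each comparison was wild-type (Trsp) littermates. Each comparison is 1 deposited column, the authors' mean over 4 biological replicates for A34, G37L and DTrsp and over 3 for G37H. No spread between animals can be had from it, and whether the comparisons shared wild-type animals is not given. The files hold ratios only, so neither signal above background nor the liver identity of the samples could be checked by level, and the number of arrays limits the precision. In whole liver, a change in RNA per cell and a change in the share of a cell type cannot be told apart.

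Values are taken as log2 ratios of the Cy5 channel (mutant) to the Cy3 channel (wild type), a direction that is likely from the dye labels but not stated. With the ratio turned, every value below changes sign. The medians over all genes were 0.07 in A34, -0.11 in G37L, -0.11 in G37H and 0.16 in DTrsp. Over all genes, the correlation between columns was lowest for A34 with DTrsp, at 0.04, and highest for G37L with G37H, at 0.47. It was 0.19 for A34 with G37L and 0.24 for A34 with G37H.

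The bases before the annotated starts of 4 of the 5 genes are shown because these genes lay high together in the 3 lines. Each run is the 250 bases upstream of a RefSeq start on GRCm38.p6, written 5′ to 3′ on the gene's strand, with capitals for every match to the 6 motifs named after it.
Cap1 promoter, chr4:122886077-122886326, minus strand: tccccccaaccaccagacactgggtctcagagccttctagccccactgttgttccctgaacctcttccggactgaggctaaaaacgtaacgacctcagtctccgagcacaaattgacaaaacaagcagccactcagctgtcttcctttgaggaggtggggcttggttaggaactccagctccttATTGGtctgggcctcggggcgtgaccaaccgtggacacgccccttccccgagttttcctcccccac
Arf5 promoter, chr6:28423354-28423603, plus strand: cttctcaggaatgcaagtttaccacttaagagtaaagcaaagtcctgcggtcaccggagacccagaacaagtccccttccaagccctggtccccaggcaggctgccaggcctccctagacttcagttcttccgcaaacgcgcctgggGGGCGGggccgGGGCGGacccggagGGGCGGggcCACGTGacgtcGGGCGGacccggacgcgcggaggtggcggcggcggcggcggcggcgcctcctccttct
Prkd1 promoter, chr12:50649250-50649499, minus strand: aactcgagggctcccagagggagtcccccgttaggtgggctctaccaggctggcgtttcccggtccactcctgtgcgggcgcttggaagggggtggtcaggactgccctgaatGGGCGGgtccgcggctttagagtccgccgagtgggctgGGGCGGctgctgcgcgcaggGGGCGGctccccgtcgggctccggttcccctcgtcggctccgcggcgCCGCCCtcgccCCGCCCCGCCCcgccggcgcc
Bcl7c promoter, chr7:127708767-127709016, minus strand: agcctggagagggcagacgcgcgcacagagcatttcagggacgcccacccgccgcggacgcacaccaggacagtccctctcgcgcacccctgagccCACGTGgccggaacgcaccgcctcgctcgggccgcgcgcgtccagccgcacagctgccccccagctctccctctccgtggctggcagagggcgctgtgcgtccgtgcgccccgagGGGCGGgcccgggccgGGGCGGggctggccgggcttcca
Searched on both strands, the GC box GGGCGG was found at 4 places in Arf5, 6 in Prkd1, where the last 2 share 1 base, and 2 in Bcl7c, and was not found in Cap1. Of 32851 such windows of mouse genes, 32.7% hold it. The E-box CACGTG occurred once each in Arf5 and Bcl7c (6.02% of windows), and the CCAAT box CCAAT once in Cap1 (33.8%). The TATA box TATAAA (12.4% of windows), the AP-1 site TGANTCA (6.75%) and the antioxidant response core TGACNNNGC (10.2%) were not found in these 4 windows. No motif of the 6 was found in all 4. The share of G and C was 57.2% for Cap1, 68.8% for Arf5, 75.6% for Prkd1 and 76.8% for Bcl7c, against a median of 52.4% over all windows.

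Cap1, which encodes an adenylyl cyclase-associated protein that binds actin monomers and helps cofilin take filaments apart, had by far the highest ratios of the 5. Its log2 ratio was 2.85 in A34, 3.18 in G37L and 3.11 in G37H, against 0.33 in DTrsp. These are 7.23-fold, 9.06-fold and 8.62-fold over wild type in the transgenic lines and 1.26-fold in DTrsp. It ranked 1st of 9285 genes in A34, at place 9 from the top in G37L and at place 6 in G37H, but at place 3153 in DTrsp. With the ratio turned, these would be the same places from the bottom. The 3 transgenic values lay within 0.33 of each other, and the lowest of them stood 2.52 above DTrsp. The A34 value has decimals that only a mean over 4 arrays gives. Those of the G37L, G37H and DTrsp values do not settle how many arrays were averaged.

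Arf5 encodes an ADP-ribosylation factor, a small GTPase that recruits coat proteins between the endoplasmic reticulum and the Golgi. Its log2 ratio was 1.64 in A34, 1.47 in G37L and 1.33 in G37H, against 0.07 in DTrsp. All 3 transgenic values were between 2.52-fold and 3.12-fold, and DTrsp was within 1.05-fold of wild type. The decimals of its values show full averages in all 4 columns, over 4 arrays in A34, G37L and DTrsp and over 3 in G37H.

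Sae1 encodes a subunit of the enzyme that activates SUMO, a small protein attached to other proteins. Averaged over its 3 probes, its log2 ratio was 1.24 in A34, 1.26 in G37L and 1.17 in G37H, against 0.34 in DTrsp. The transgenic means differed by no more than 0.09, but the single probes did not follow one pattern. The first probe was high everywhere, at 1.12 in A34, 1.55 in G37L and 1.52 in G37H, against 1.53 in DTrsp. The decimals of that G37H value show a mean over 2 arrays, not 3. The second probe was at 1.48, 0.77 and 0.81 in the same 3 lines and at -0.62 in DTrsp. The last was at 1.11, 1.47 and 1.17, against 0.09 in DTrsp, and alone met all 4 cuts. The probes thus lay within 0.37 of each other in A34 and 2.16 apart in DTrsp, where 4 of 480 genes with 3 probes had a wider range. Sae1 keeps its place among the 10 genes when its last probe is left out. It loses it without the first, when G37H is at 0.99, and without the second, when DTrsp is at 0.81.

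Prkd1 encodes protein kinase D1, which diacylglycerol activates and which acts in the budding of carriers from the Golgi. Its log2 ratio was 1.15 in A34, 1.18 in G37L and 1.10 in G37H, against -0.73 in DTrsp. The 3 transgenic values were 2.14-fold to 2.26-fold over wild type and lay within 0.07 of each other, while DTrsp was at 0.602 of wild type, 387th from the bottom of all genes. The decimals of the A34 value show a mean over 3 arrays, not 4. Those of the DTrsp value show 2 or 4 arrays, and those of the G37L and G37H values settle no number.

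Bcl7c encodes a subunit of the SWI/SNF (BAF) complexes, which move nucleosomes. Its log2 ratio was 1.04 in A34, 1.51 in G37L and 2.26 in G37H, against -0.55 in DTrsp. It differed most of the 5 between the transgenic lines, with the 16-copy G37H line 0.75 above the 2-copy G37L line. Of all genes, 13.4% had a larger absolute difference between those columns. The other 4 genes had G37H minus G37L between -0.14 and -0.07, and for each of them at least 75.4% of genes had a larger one. The decimals of the Bcl7c values show full averages in all 4 columns.

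**Figure D1:**
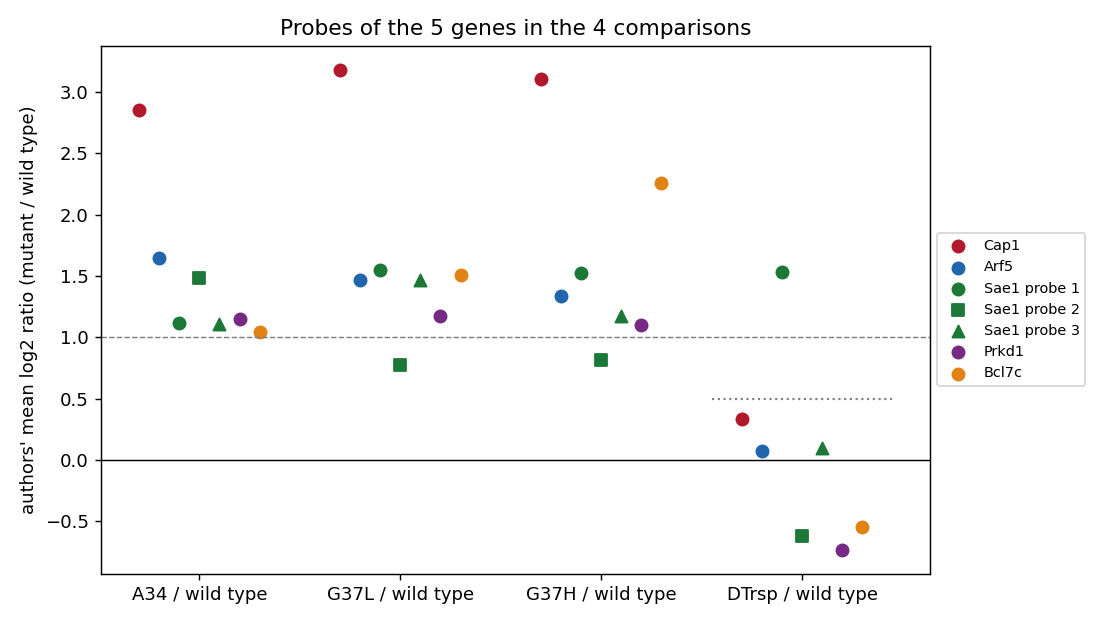
Each point is 1 probe's deposited log2 ratio of mutant over wild type, with the 4 comparisons along the horizontal axis, colours for genes and shapes for the 3 Sae1 probes; the dashed line marks 1 and the dotted line the DTrsp limit of 0.5. Cap1 stands between 2.85 and 3.18 in the 3 transgenic lines, and the Sae1 probes spread from -0.62 to 1.53 in DTrsp.

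Over the 5 genes the median log2 ratio was 1.24 in A34, 1.47 in G37L and 1.33 in G37H, against 0.07 in DTrsp. Relative to the median of all genes these were 1.16, 1.58 and 1.45, against -0.09 in DTrsp. At least 2-fold higher genes made up 1.4% of all genes in A34, 2.51% in G37L, 2.78% in G37H and 3.27% in DTrsp, and the rule placed all 5 among them in the 3 transgenic columns. Values below 0.5 in DTrsp were common, at 79.3% of genes. Together the 4 cuts were met by 0.108% of genes. Without the DTrsp limit 15 genes passed, and the 5 that it removed were the metallothioneins Mt1, Mt2 and Mt4, the glutathione transferase Gstp3 and the macrophage gene Mpeg1. The order of the 5 genes changed with the column. Cap1 was highest in each transgenic line, the lowest was Bcl7c in A34 and Prkd1 in G37L and G37H, and in DTrsp Sae1 and Cap1 were highest and Prkd1 lowest. The gaps among Arf5, Sae1 and Prkd1 in G37L and G37H were no more than 0.29, and cannot be set against a spread between animals.

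The other 5 genes within the cuts are the acute phase gene Saa1, the protease inhibitor gene Serpina3n, the glucuronosyltransferase gene Ugt2b38, the oxysterol hydroxylase gene Cyp7b1 and Fam25c. Saa1 was at 1.29 in A34, 4.31 in G37L and 2.27 in G37H, against 0.05 in DTrsp. Cyp7b1 was at 1.14, 1.25 and 1.26 in those lines, against -1.08 in DTrsp. The range over the 3 transgenic lines was 0.33 for Cap1, 0.31 for Arf5, 0.09 for Sae1, 0.07 for Prkd1 and 1.22 for Bcl7c. Of the other 5 genes, it was 3.02 for Saa1, 1.86 for Serpina3n, 1.68 for Ugt2b38, 0.42 for Fam25c and 0.12 for Cyp7b1. The median range was 0.55 over all genes and 1.22 over the 15 genes at least 2-fold higher in all 3 lines, so narrow and wide ranges occurred both among the 5 and among the other genes within the cuts.

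**Figure D2:**
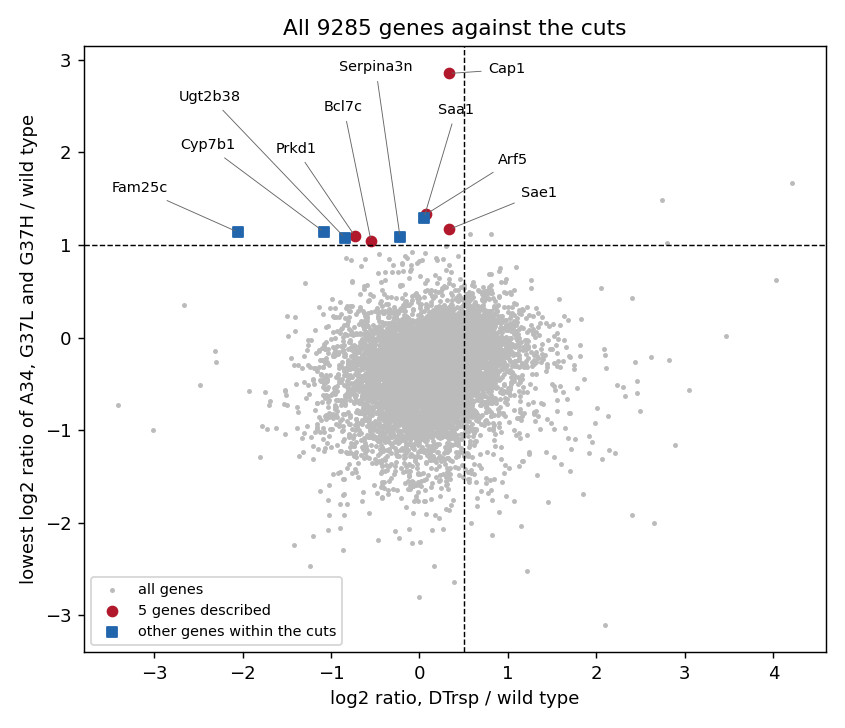
Each grey point is 1 of 9285 genes, with its DTrsp log2 ratio on the horizontal axis and the lowest of its A34, G37L and G37H log2 ratios on the vertical axis; dashed lines are the cuts at 0.5 and 1. Cap1, at 2.85, stands apart from the other 9 genes within the cuts, which lie between 1.04 and 1.33.

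Some genes lay just outside the cuts. The histocompatibility gene H2-Aa, at 0.99 in A34, 1.04 in G37L and 1.49 in G37H, against 0.30 in DTrsp, missed them by 0.01. Ttc39a, Gstp3, Ctss and Btbd9 missed by 0.08, 0.08, 0.08 and 0.09 in summed shortfall. Just inside, Bcl7c passed the A34 cut at 1.04.

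By Euclidean distance over the 4 columns, with the 5 themselves left out of the search, the genes most like each of the 5 were as follows. Cap1 had no close match, its nearest being Saa1 at a distance of 2.12 and Serpina3n at 2.37. Arf5 was nearest to Klhdc9 (0.64) and to the lysosomal protease gene Ctss (0.80). Sae1 was nearest to H2-Aa (0.46) and Ctss (0.46). Prkd1 was nearest to the ion transporter gene Slc4a11 (0.37) and to Cyp7b1 (0.39). Bcl7c was nearest to the serpin gene Serpina11 (0.52) and the pseudogene Serpina4-ps1 (0.52). Ctss was thus near both Arf5 and Sae1. Among the 5 themselves, the nearest pair was Arf5 and Sae1 (0.55), closer than Klhdc9 to Arf5.

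H2-Aa and Ctss belong to the list of Kupffer cell and macrophage markers, and the other nearest genes do not. Both were found by distance over the same 4 columns that chose the 5, so their likeness is a description only. The medians of that list were higher in the 3 transgenic lines than in DTrsp. Of 22 measured markers of 24, 3 were at least 2-fold higher in A34, 7 in G37L and 5 in G37H, against 2 in DTrsp. Over all genes the shares were 1.4% in A34, 2.51% in G37L, 2.78% in G37H and 3.27% in DTrsp. Of the markers, 0 were at least 2-fold lower in any column, where 0.452% to 3.96% of all genes were. The median of the markers was 0.68 in A34, 0.67 in G37L and 0.53 in G37H, against 0.17 in DTrsp. The extremes were Slc40a1 at 1.64 in DTrsp, Mpeg1 at 1.60 in G37L and Vsig4 at 1.56 in G37H. The defining Kupffer cell marker Clec4f was at 0.60 in A34, 1.24 in G37L and 0.91 in G37H, against 0.97 in DTrsp. A summed level cannot be had from ratios, and the part of these cells in the values of the 5 genes was not tested.

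The medians of stellate cell and fibroblast markers also stood above DTrsp in the 3 lines, so this was not particular to macrophage markers. Those of hepatocytes, endothelial cells and red cell precursors stood below DTrsp. For hepatocytes (21 measured) the median was 0.34 in A34, 0.56 in G37L and 0.47 in G37H, against 0.64 in DTrsp. For endothelial cells (13) it was 0.23, -0.09 and -0.23, against 0.39 in DTrsp, and for stellate cells and fibroblasts (13) 0.15, -0.06 and -0.05, against -0.43. For red cell precursors (5) it was 0.16, 0.27 and 0.18, against 0.43 in DTrsp. Lymphocyte (4), neutrophil (4) and bile duct (2) markers were too few to describe by a median. Their members ranged from -0.95 to 0.78 in A34, from -0.94 to 4.47 in G37L and from -0.79 to 0.93 in G37H, against -0.54 to 1.07 in DTrsp, with the neutrophil and acute phase gene Lcn2 the highest in G37L.

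The measured relatives of Arf5, Sae1, Prkd1 and Bcl7c named here were below 2-fold in the 3 transgenic lines. Most genes were, as only 1.4% to 2.78% of all genes were at least 2-fold higher there and 0.452% to 3.96% lower. Among ARF genes, Arf1 was at 0.10 in A34, 0.52 in G37L and 0.04 in G37H, against 0.38 in DTrsp. Arf2, Arf3 and Arf6 lay between -0.16 and 0.76 in the 3 transgenic lines and between 0.31 and 0.59 in DTrsp. Sumo2 and Sumo3, which encode the protein that Sae1 activates, lay between -0.17 and 0.40 in the transgenic lines, against 0.33 and 0.68 in DTrsp. Prkd3, a second protein kinase D, was at 0.67 in A34, -0.13 in G37L and -0.58 in G37H, against -0.43 in DTrsp. Bcl7a was at 0.12, -0.79 and -0.25, against 0.18 in DTrsp, and Bcl7b at 0.04, 0.02 and 0.04, against 0.52 in DTrsp. Cap2, Arf4, Uba2 and Prkd2 had no named probe here.

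**Figure D3:**
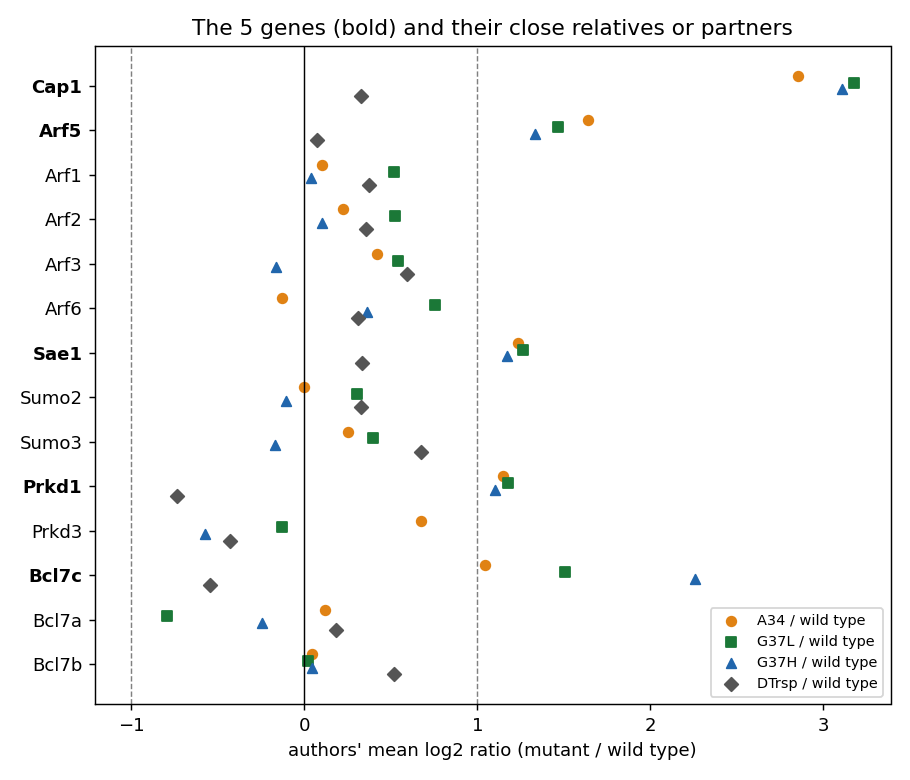
Deposited log2 ratios of mutant over wild type (horizontal axis) for the 5 genes, in bold, and their measured relatives or partners; shapes and colours mark the 4 comparisons, and dashed lines mark 2-fold. In the 3 transgenic lines the rule placed each of the 5 beyond the line at 1. No relative reaches it there, and only 1.4% to 2.78% of all genes do.

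Members of the pathways of the 5 genes were counted in the same way, against 1.4% to 2.78% of all genes at least 2-fold higher in the transgenic lines. At these shares, lists of 12 to 37 genes would hold about 0 or 1 such gene each, so the counts of higher genes are near the background. Of 28 actin turnover genes measured, 0 were at least 2-fold higher in any column, and the median was 0.16 in A34, 0.05 in G37L and -0.19 in G37H, against 0.32 in DTrsp. Lower by at least 2-fold were Ssh1, the slingshot phosphatase that activates cofilin, at -1.33 in G37L and -1.01 in G37H, and Limk2, the kinase that inactivates cofilin, at -1.11 in G37H. At least 2-fold lower genes were 0.452% of all genes in A34, 3.96% in G37L, 3.1% in G37H and 1.62% in DTrsp.

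Of 37 genes of the ARF cycle and its coats, 0 were at least 2-fold higher in the transgenic lines and 1 in DTrsp. The median was 0.04 in A34, 0.34 in G37L and -0.08 in G37H, against 0.24 in DTrsp. The coat subunit gene Arcn1 was at -1.52 in G37H, and Copg2, another coat subunit gene, and Arfgef2, an exchange factor gene, were at -1.31 and -1.04 in G37L. In DTrsp, Arcn1 was at 0.85, Copg2 at -1.20, the 1 gene of the list at least 2-fold lower there, and Arfgef2 at 0.38.

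Of 18 SUMO pathway genes, 0 were 2-fold apart in the transgenic lines. The median was 0.00 in A34, -0.22 in G37L and -0.10 in G37H, against 0.14 in DTrsp. In DTrsp the ligase gene Ranbp2 was at 1.12 and the protease gene Senp3 at -1.03, both chosen after their values were seen. Of 20 BAF complex genes, 0 were 2-fold apart in any column, and the median was 0.07 in A34, -0.13 in G37L and 0.03 in G37H, against 0.10 in DTrsp.

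Of 12 measured genes of protein kinases D and C and diacylglycerol signalling, 1 was at least 2-fold higher in a transgenic line. It was Pi4kb, a Golgi lipid kinase that is a substrate of protein kinase D in human cells, at 0.96 in A34, 0.86 in G37L and 1.10 in G37H, against 0.18 in DTrsp. Prkce, a protein kinase C, was the 1 lower, at -1.10 in G37L. The list median was 0.10 in A34, -0.33 in G37L and -0.14 in G37H, against -0.13 in DTrsp.

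Measured genes on either side of the 5 in chromosome order were compared as a description chosen after the ratios of the 5 were seen. The 3 nearest measured genes on each side, with no limit on distance, gave 30 neighbours. Of these, 0 were at least 2-fold higher in A34, 1 in G37L and 1 in G37H, against 0 in DTrsp. Over all genes the shares were 1.4% in A34, 2.51% in G37L, 2.78% in G37H and 3.27% in DTrsp. The counts of higher neighbours are thus near the background. The 2 higher neighbours were Dnajb9 and C5ar2. Dnajb9, an endoplasmic reticulum co-chaperone gene among the neighbours of Prkd1, was at 1.39 in G37L. The complement receptor gene C5ar2, among those of Sae1, was at 1.15 in G37H. At least 2-fold lower were 1 neighbour in A34, 1 in G37L and 2 in G37H, against 2 in DTrsp. Of all genes, 0.452% were as low in A34, 3.96% in G37L, 3.1% in G37H and 1.62% in DTrsp. The median of the neighbours was 0.07 in A34, -0.03 in G37L and -0.18 in G37H, against 0.19 in DTrsp.

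The measured gene next to Cap1 lay in the opposite direction. Mfsd2a, a lysolipid transporter gene, was at -1.85 in A34, -2.14 in G37L and -0.50 in G37H, against -1.20 in DTrsp. On the other side, Ppt1, a lysosomal thioesterase gene, was at 0.62, 0.60 and 0.82, against -0.44 in DTrsp. Another gene of that stretch, Trit1, encodes the enzyme that adds the isopentenyl group at position 37 of tRNAs including the selenocysteine tRNA, and was at 0.07 in A34, -0.16 in G37L and -0.45 in G37H, against -0.87 in DTrsp. Among the neighbours of Sae1, the cell death gene Bbc3 was at -0.30, -0.92 and -1.75, against -1.03 in DTrsp.

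**Figure D4:**
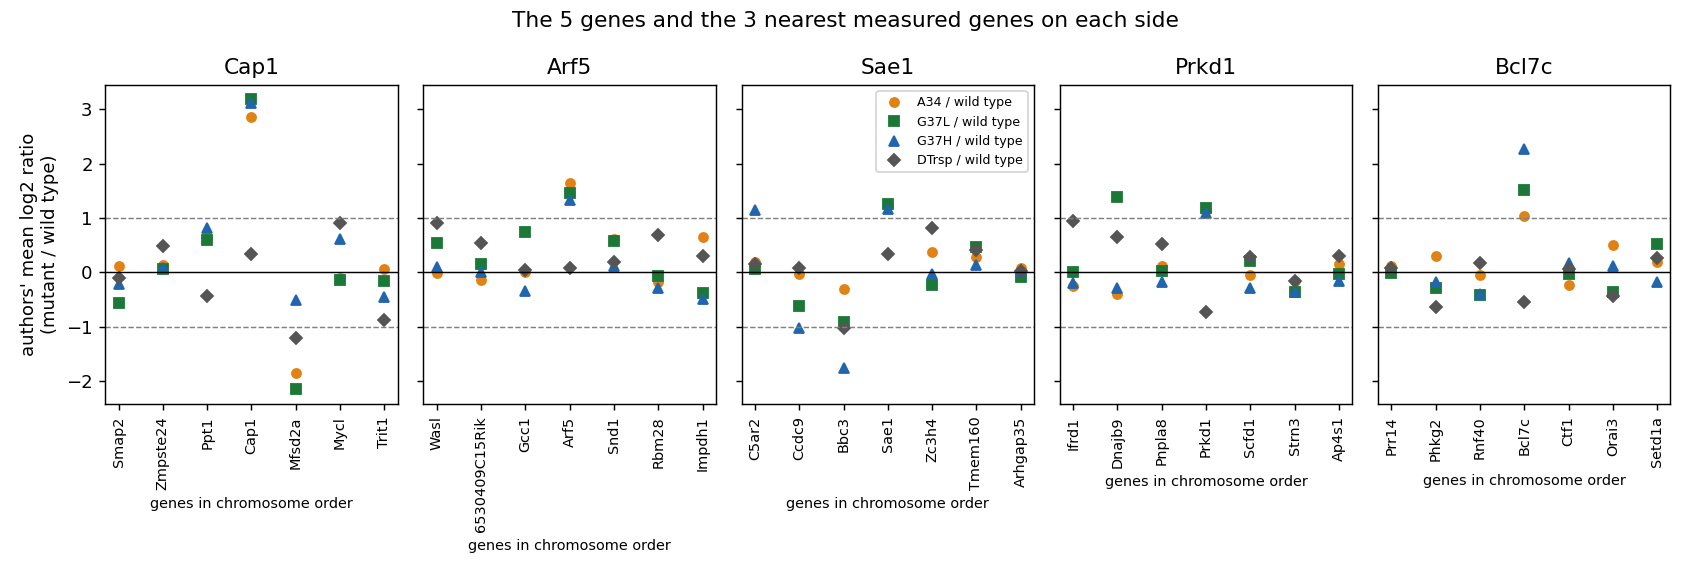
Deposited log2 ratios of mutant over wild type (vertical axis) for each of the 5 genes, in the middle of its panel, and the 3 nearest measured genes on each side in chromosome order; shapes and colours mark the 4 comparisons, and dashed lines mark 2-fold. Of the 30 neighbours, 1 lies at or above 1 in G37L and 1 in G37H, where 2.51% and 2.78% of all genes do.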

How the data were processed

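Per the labels, 15 µg of liver RNA was copied from oligo-dT primers, wild type was coupled to Cy3 and mutant to Cy5, and 1 biological replicate was hybridised per array. The deposited values are log2 ratios as read here, which the authors averaged over replicates, per the labels. The base of the logarithm, background correction, normalization and dye swaps were not stated in any source used here. Probes were named through the platform annotation and the RefSeq gene table of GRCm38.p6. The 2431 probes with several genes or none stayed unnamed, and probes of a gene were averaged with pandas 2.3.3. How many arrays a mean rests on was read from its decimals, taking single values to have a step of 0.0001. Of 28 values of the 5 genes, 9 showed 4 arrays, 4 showed 3, 1 showed 2, 1 showed 2 or 4, and 13 were not settled.

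Members and the 5 pathway and 8 cell type lists were chosen with earlier results of these data known. Named genes are the 5, all others within the cuts, the 5 nearest outside, the 2 nearest to each by distance, close relatives, up to 3 list members 2-fold apart in a transgenic line, and up to 3 marker genes with the largest values. Clec4f, Ranbp2, Senp3, the neighbours, the genes set aside by the DTrsp limit, Arhgef10 and C9 were chosen after their values were seen. No test was run, since each comparison is 1 averaged column. The counting of genes against the cuts was tested on simulated data. Alternatives were other thresholds, centring, scaling, other uses of probes and natural logs.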

Additional observations from a re-analysis of the deposited data

Results flagged for a closer look

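Of the genes named in the text, on the lists or among the neighbours, 7 lay on opposite sides of wild type, at least 0.5 above it in all 3 transgenic lines and at least 0.5 below it in DTrsp. The share of all genes that lie so is not given here, so the count of 7 cannot be set against a background. None of these differences was tested, because each line is 1 averaged value. For Bcl7c, Prkd1, Fam25c, Cyp7b1 and Ugt2b38, which are within the cuts, the choice of genes used these values. Bcl7c was between 1.04 and 2.26 in the transgenic lines and at -0.55 in DTrsp. Prkd1 was between 1.10 and 1.18, and at -0.73 in DTrsp. Fam25c was between 1.14 and 1.56, and at -2.05 in DTrsp, 7th from the bottom of all genes. Cyp7b1 was between 1.14 and 1.26, and at -1.08 in DTrsp. Ugt2b38 was between 1.07 and 2.75, and at -0.84 in DTrsp. C9, by the mean of its 2 probes, was between 0.78 and 1.16, and at -0.66 in DTrsp. Slc4a11, just outside the cuts, was between 0.85 and 1.28, and at -0.61 in DTrsp. With the ratio turned, the sides change places and the values remain opposite.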

How the results depend on the processing

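The count of 10 genes within the cuts depends on where the cuts lie. It was 57 with 1.5-fold in the transgenic lines and 1, Cap1 alone, with 3-fold. It was 6 with DTrsp below 0, which kept Prkd1 and Bcl7c of the 5, 23 with columns scaled to the spread of DTrsp, 16 with probes counted singly and 40 with the values read as natural logs. Each alternative changes the cuts, the values or the unit counted, and why the count moved was not tested further. Without a DTrsp limit, after centring, with the median of probes or over genes with 1 probe it was 15, 11, 10 and 9, and centring removed Bcl7c, at 0.97 in A34. Read as natural logs, the median of the 5 became 2.12 in G37L and 1.92 in G37H. The other 18 alternatives for that median, and all 208 for list medians, moved by less than 1.5-fold. For single genes, an added comparison, 10 of 80 moved by more, all upward under natural logs or scaling, and none changed direction while 2-fold apart. No paired analysis was possible because each column is an average, and no animal could be left out for the same reason.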

Other observations

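Counted as single probes, 16 of 15478 met the 4 cuts, or 0.103%. They were 5 probes of the 5 genes, 7 of other named genes and 4 that carry no gene name here. Of the 4 unnamed, the highest was at 1.71 in A34, 2.94 in G37L and 2.60 in G37H, against 0.10 in DTrsp. A probe of Arhgef10, a guanine nucleotide exchange factor gene, was at 1.75, 1.76 and 1.9, against -0.11 in DTrsp, but a second probe of that gene was at -0.13, -0.13 and -0.26, against -0.29. For C9, a complement gene, 1 probe was at 1.33, 1.13 and 1.19, against -0.27 in DTrsp, and the other at 0.998, 0.42 and 0.58, against -1.05. Of Sae1, Arhgef10 and C9, the genes within or partly within the cuts that have several probes, each had probes that disagreed on at least 1 cut, and Cap1, Arf5, Prkd1 and Bcl7c have 1 probe each, so no second probe bears on their values.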
